A study of Mus musculus with 72 samples.

Results

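Receptors and alarmins of mature neutrophils were followed in the blood of irradiated mice through 10 genes taken by name from the annotation of the array. They were the alarmins S100a8 and S100a9, the cytokine Il1b with its decoy receptor Il1r2, the formyl peptide receptors Fpr1 and Fpr2, the chemokine receptor Cxcr2, the growth factor receptor Csf3r, the surface protein Cd177 and the secreted protein Retnlg. Each of the 10 genes had 1 probe, and 9 of them were among the 10863 genes tested. Csf3r was well above background on every array but lay at least 1.5-fold from its median on only 14.3% of the 56 arrays of days 1 and 7, under the 20% required, so its values come from a fit of 16098 genes without that filter. None of the 10 probes had a saturated spot.

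Whole blood of 72 male C57BL/6 mice, 8 to 10 weeks old, was measured on one-colour Agilent arrays, with 1 mouse per array. Mice were sham-irradiated controls or were exposed to 0.25 or 1 Gy of neutrons or to 1 or 4 Gy of x-rays, and blood was drawn by cardiac puncture 1 or 7 days later. The labels also hold day 3 arrays of controls, 0.25 Gy neutrons and 1 Gy x-rays, which made 13 groups of 5 or 6 mice in all. The neutron beam also carried gamma rays, so the neutron groups received a mixed field. Blood was stabilised in PAXgene solution and globin transcripts were reduced before labelling, in every group alike. Total blood RNA was measured, so fewer cells of a type and less RNA per cell cannot be told apart.

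Levels are log2 processed intensities with the median detected probe of each array at 0, and a call required a limma p below 0.001 together with a false discovery rate (FDR) below 0.05 over all genes tested. The 1 Gy neutron arrays of day 7 were dim, with 40.2 to 50.3% of spots well above background against 54.3 to 63.9% in the day 7 controls. Arrays were read on 7 scan dates that did not cut evenly across the groups. The day 1 controls shared their date with 4 of the 6 arrays of 1 Gy neutrons, and the day 7 controls with 1 of 6. No x-ray array of any dose or day shared a date with the controls of its day. In every comparison of x-rays with controls, exposure and date therefore cannot be told apart. A list of 35 hepatocyte genes, 34 of them on the array and 10 tested, was uneven between mice, with a mean level of -2.11 to 5.37 in the day 1 controls, 6.39 to 7.69 after 4 Gy x-rays at day 1 and -5.04 to -3.50 in the day 7 controls. Of the 34 on the array 10 passed the detection filter, and Alb, the defining hepatocyte transcript, was not among them. That filter took the arrays of day 1 and day 7 together, so a gene that failed it may still be bright in some groups.

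Neutrophils are short-lived phagocytes that leave the bone marrow under the control of granulocyte colony-stimulating factor, whose receptor is Csf3r, and of chemokines that bind Cxcr2. Fpr1 and Fpr2 recognise formylated peptides of bacteria and mitochondria and steer the cells to damaged tissue, while Il1r2 binds interleukin 1 without signalling. S100a8 and S100a9 form calprotectin, a calcium-binding complex that is abundant in the neutrophil cytosol and acts as an alarmin once released. Monocytes express several of these genes too. Of 36 further genes listed as markers of mature neutrophils, 34 were on the array and 30 were tested. Ly6g, the marker used most often for mouse neutrophils, was not matched on the array.

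The 5 genes called higher against controls at any day or dose are shown by the 250 bases before their annotated starts, from RefSeq on build GRCm38.p6, to be read side by side. They were not all called on the same day or after the same exposure. Capitals mark the letters TTNNGNAA, searched as a C/EBP motif, and GAGGAA, searched as a PU.1 motif, on either strand. C/EBP and PU.1 are transcription factors of the granulocyte lineage. The windows were chr1:40085843-40086092 on the plus strand for Il1r2, chr17:17883940-17884189 on the minus strand for Fpr1, chr17:17887574-17887823 on the plus strand for Fpr2, chr1:74153744-74153993 on the plus strand for Cxcr2 and chr3:90695722-90695971 on the minus strand for S100a9.
Il1r2: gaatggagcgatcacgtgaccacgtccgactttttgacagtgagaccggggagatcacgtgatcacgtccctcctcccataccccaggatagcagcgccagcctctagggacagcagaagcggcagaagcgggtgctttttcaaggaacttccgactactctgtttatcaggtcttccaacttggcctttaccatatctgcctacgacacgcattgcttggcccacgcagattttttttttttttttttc
Fpr1: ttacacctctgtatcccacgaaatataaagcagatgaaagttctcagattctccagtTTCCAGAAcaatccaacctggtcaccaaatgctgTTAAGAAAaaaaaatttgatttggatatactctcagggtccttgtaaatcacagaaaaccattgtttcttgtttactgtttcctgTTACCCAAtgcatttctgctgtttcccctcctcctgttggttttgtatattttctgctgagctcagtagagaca
Fpr2: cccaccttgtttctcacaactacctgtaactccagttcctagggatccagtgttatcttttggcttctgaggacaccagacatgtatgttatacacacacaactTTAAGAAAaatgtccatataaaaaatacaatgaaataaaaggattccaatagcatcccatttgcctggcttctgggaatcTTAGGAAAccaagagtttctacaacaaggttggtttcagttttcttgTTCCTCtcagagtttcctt
Cxcr2: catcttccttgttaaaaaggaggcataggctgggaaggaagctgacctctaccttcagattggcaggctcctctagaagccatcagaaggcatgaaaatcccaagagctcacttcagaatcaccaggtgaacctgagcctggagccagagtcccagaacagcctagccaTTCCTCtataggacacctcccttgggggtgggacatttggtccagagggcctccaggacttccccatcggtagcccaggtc
S100a9: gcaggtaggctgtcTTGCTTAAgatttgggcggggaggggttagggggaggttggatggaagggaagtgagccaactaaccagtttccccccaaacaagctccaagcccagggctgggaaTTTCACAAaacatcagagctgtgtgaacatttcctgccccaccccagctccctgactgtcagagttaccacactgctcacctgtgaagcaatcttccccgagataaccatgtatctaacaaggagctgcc
The C/EBP letters occurred 3 times in the Fpr1 window and 2 times each in those of Fpr2 and S100a9, and neither motif was found in the Il1r2 window. Over all 10 members the C/EBP letters were found in 7 windows and the PU.1 letters in 5, against 36.8% and 23.3% of 32851 promoters of the same length. The TATAAA letters were found in 5 of the 10 windows and in 12.4% of all promoters. The AP-1 letters TGANTCA were in 0 of 10 windows and in 6.7% of all promoters. A match describes the letters of a window and not a bound site.

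One day after 1 Gy of neutrons, Il1r2, Fpr2 and Fpr1 rose 3.12 to 4.39-fold, while the alarmins, Cxcr2, Cd177 and Retnlg did not pass the test. In all, 3 of the 9 members tested were called higher and 0 lower, beside 6.96% of all genes called higher and 17.5% called in either direction. The median difference from controls was 0.80 on the log2 scale over the 9 members and 0.05 over all genes. All genes split into 756 called higher and 1144 lower, or into 522 and 1832 after centring on the 75th percentile and 1624 and 230 after centring on spike-in controls, and the 3 members stayed called higher under both.

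Il1r2, which captures interleukin 1 at the cell surface, had log2 levels of -0.51, -0.06, -1.37, 0.23 and -1.09 in the 5 controls of day 1. After 1 Gy of neutrons its lowest, median and highest levels were 1.22, 1.44 and 2.26. All 6 exposed mice lay above every control, as was so for 7.52% of all genes. The rise was 4.39-fold (log2 2.13, SE 0.31, limma adjusted p = 0.000592). Fpr2 stood at 1.06, 1.15, -0.14, 1.36 and 0.14 in the controls and at 2.31, 2.40 and 3.13 (lowest, median, highest) after neutrons. Again no exposed mouse fell within the controls, and the rise was 3.51-fold (log2 1.81, SE 0.29, limma adjusted p = 0.00103). For Fpr1 the control levels were 0.14, 0.72, -0.58, 1.15 and -0.29, and those after neutrons ran from 1.36 through a median of 1.72 to 2.45. The groups did not overlap, and Fpr1 rose 3.12-fold (log2 1.64, SE 0.33, limma adjusted p = 0.00265). Fpr1 and Fpr2 lie close to each other on chromosome 17, and their probes shared no stretch of 16 bases with each other or with any other probe.

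Il1b, the cytokine that Il1r2 binds, had control levels of 2.31, 3.92, 1.87, 3.37 and 2.15 and levels of 3.44, 3.87 and 4.60 (lowest, median, highest) after 1 Gy of neutrons. Only 2 of 6 exposed mice lay above every control, and the difference of 1.15 (SE 0.37, limma adjusted p = 0.0236) was not called. S100a8 differed by 0.80 (SE 0.30, limma adjusted p = 0.0457) and S100a9 by 0.51 (SE 0.26, limma adjusted p = 0.114), with 4 and 3 of 6 mice above the controls. Cxcr2 overlapped the controls, at 0.93, 0.83, -0.86, 1.23 and -0.02 in controls and -0.00 to 1.90 after neutrons. Cd177 differed by -0.04 (SE 0.48), Retnlg by 0.33 (SE 0.27) and Csf3r by -0.29 (SE 0.21).

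**Figure D1:**
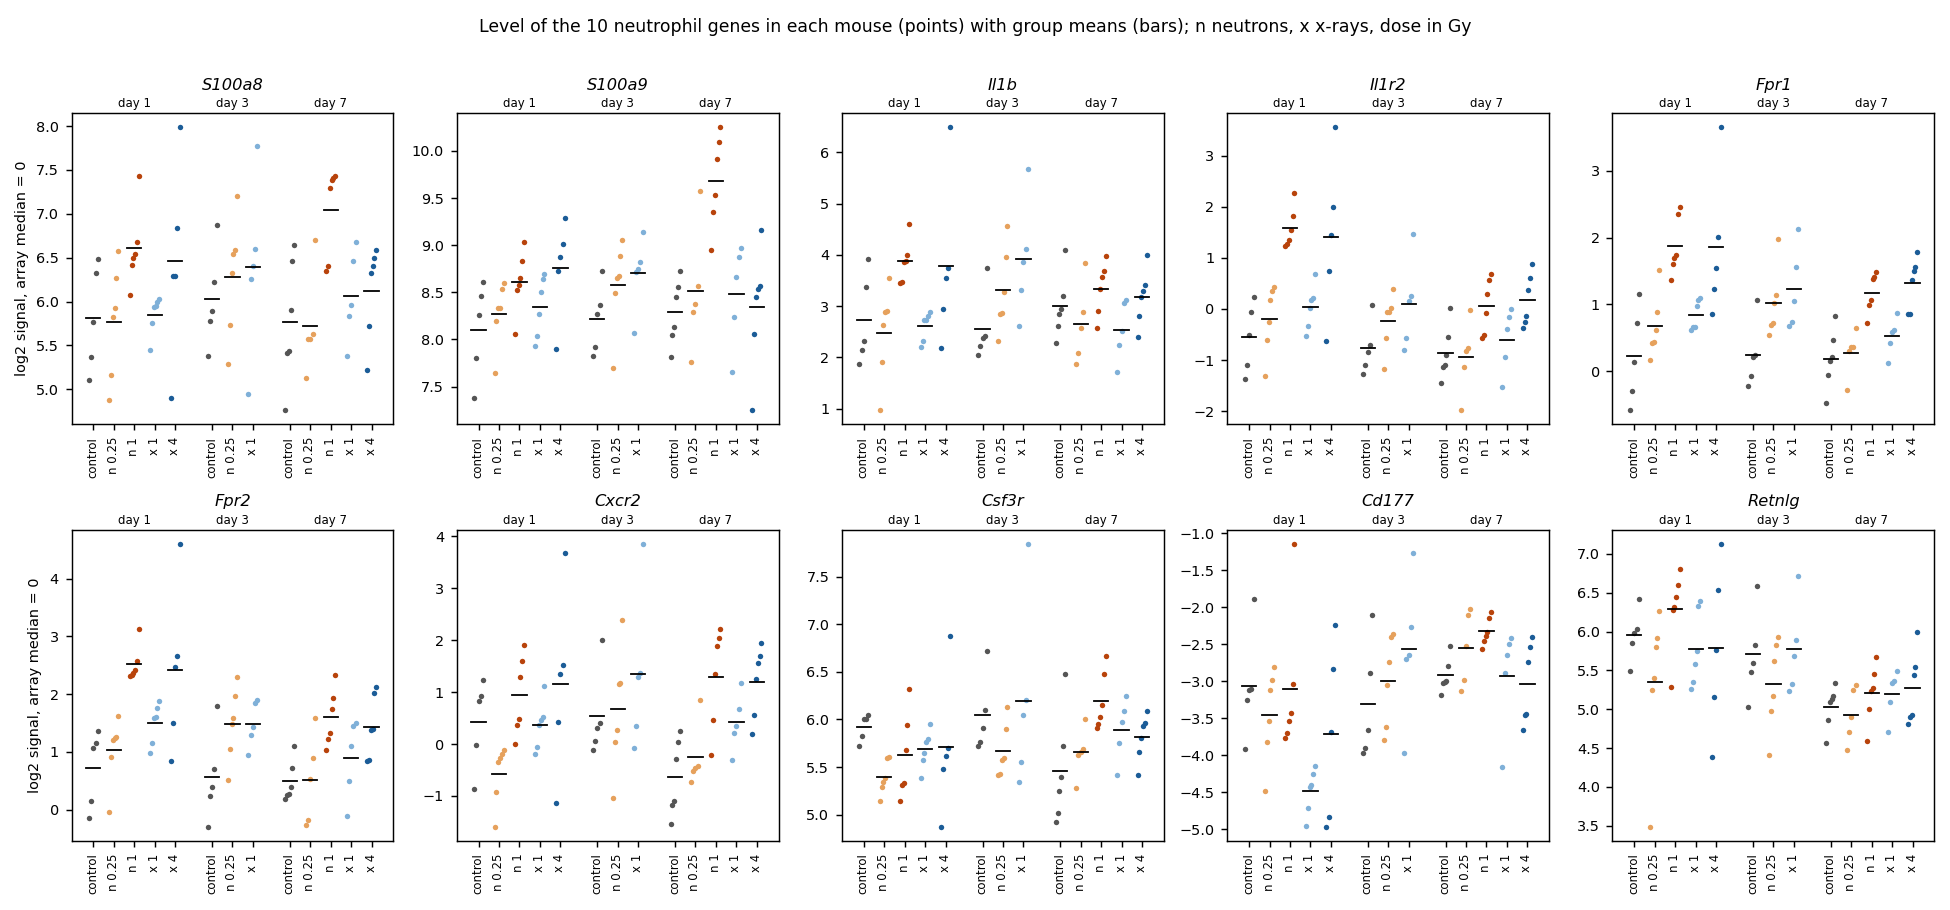
Level of each of the 10 genes in each of the 72 mice, on the log2 scale with the median detected probe of the array at 0 (vertical axis of each panel), by exposure and day (horizontal axis). Each point is 1 mouse and the bars are group means. Il1r2, Fpr1 and Fpr2 of the 6 mice given 1 Gy of neutrons lie above all 5 controls at day 1. In the 4 Gy x-ray group at day 1 the same mouse is the highest for Il1r2, Fpr1, Fpr2 and Il1b.

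Scan date was entered as a block for this comparison, since 4 of the 6 neutron arrays shared the controls' date. Il1r2 then differed by 2.23 (SE 0.35, limma adjusted p = 0.0026), Fpr2 by 1.85 (SE 0.34, limma adjusted p = 0.00448) and Fpr1 by 1.80 (SE 0.36, limma adjusted p = 0.00643), and all 3 were called. Other mature neutrophil genes were higher in the same mice: 7 of the 30 tested were called higher and 0 lower, with a median difference of 1.06. Over all 10863 genes, 756 (6.96%) were called higher and 1144 lower in the fit without the block. Lrg1, a secreted glycoprotein of granulocytes and liver, differed by 3.35 (SE 0.64). The hepatocyte list was at -1.95 to 6.93 (median 5.94) in these mice and -2.11 to 5.37 (median 3.16) in controls. Its part in the Lrg1 value was not tested. The mean level of the mature neutrophil list was 0.54 to 1.76 in controls and 1.91 to 3.03 after 1 Gy of neutrons. Of 17 monocyte genes tested 2 were called higher and 1 lower, near the shares of all genes. Their mean level was 2.36 to 2.89 in controls and 2.37 to 3.31 after neutrons. All 11 B cell genes tested were called lower, with a median difference of -2.62. The part of these marker lists in the members' levels was not tested.

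**Figure D2:**
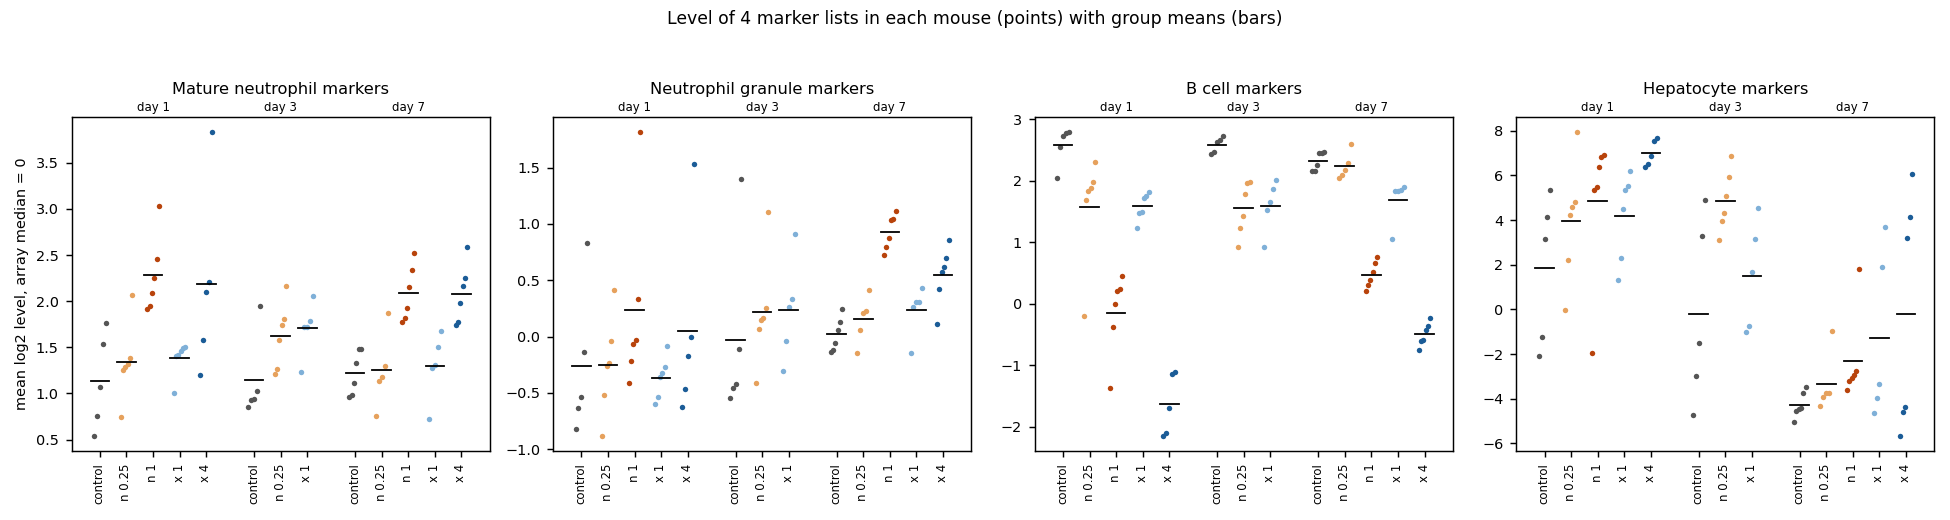
Mean log2 level of the mature neutrophil, neutrophil granule, B cell and hepatocyte lists (vertical axes, median detected probe of the array at 0) in each mouse, by exposure and day (horizontal axis). Each point is 1 mouse; the mature neutrophil level of the 1 Gy neutron mice at day 1 (1.91 to 3.03) lies above that of the controls (0.54 to 1.76), and hepatocyte levels spread over several log2 units within groups.

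After 4 Gy of x-rays no member was called at day 1, and the levels of Il1r2, Fpr2 and Fpr1 spread widely over the 5 mice. Il1r2 stood at 1.98, 0.74, -0.63, 3.55 and 1.44 in replicates 1 to 5, Fpr2 at 2.47, 1.51, 0.85, 4.60 and 2.66, and Fpr1 at 2.01, 1.23, 0.86, 3.65 and 1.55. Replicate 4 was the highest and replicate 3 the lowest for each, and 4 of the 5 mice lay above every control. Il1r2 differed from controls by 1.98 (SE 0.63, limma adjusted p = 0.0159), Fpr2 by 1.70 (SE 0.59, limma adjusted p = 0.0240) and Fpr1 by 1.63 (SE 0.50, limma adjusted p = 0.0124). By limma, 0 of 9 members were called and 3 had an unadjusted p below 0.05, beside 35.1% of all genes called. Without replicate 3, the lowest mouse, Il1r2 differed by 2.49 (SE 0.52, limma adjusted p = 0.00186) and was called. None of the other fits that left out 1 mouse called a member. Il1b was more uneven still, at 3.75, 2.94, 2.19, 6.49 and 3.55, and differed by 1.06 (SE 0.69). S100a9 differed by 0.66 (SE 0.31), S100a8 by 0.65 (SE 0.48), Cxcr2 by 0.74 (SE 0.72), Retnlg by -0.16 (SE 0.44) and Cd177 by -0.65 (SE 0.53). The members had a median difference of 0.74 against 0.00 over all genes. Of the other mature neutrophil genes 5 of 30 were called higher, a share near that of all genes, where 1790 of 10863 were. Their median was 0.99, and the mean level of that list ran from 1.21 to 3.83 over the 5 mice.

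At the lower doses of day 1 the test called 1 member. After 1 Gy of x-rays, Cd177, which pairs with a protease on the neutrophil surface, was called lower, and no member was called higher, beside 4.56% of all genes called lower and 7.65% in either direction. Cd177 had control levels of -3.26, -3.12, -3.92, -1.89 and -3.10 and levels of -4.96, -4.42 and -4.14 (lowest, median, highest) after 1 Gy of x-rays. All 6 exposed mice lay below every control, as in 5.88% of all genes, and the fall was 2.69-fold (log2 -1.43, SE 0.30, limma adjusted p = 0.00865). Its probe was among the dimmest here and was not well above background in 2 of these 6 mice, so the size of the fall is uncertain. The 336 genes called higher and 495 lower here became 201 and 713 after centring on the 75th percentile, 468 and 144 after spike-in centring and 0 and 4 after normexp background correction, and Cd177 was below controls under each. It was called in 8 of 14 settings and in 7 of 11 fits that left out 1 mouse. The call was lost with normexp, where the difference was -0.74, and with spike-in centring. Setting dim spots to missing and taking the hepatocyte level as a covariate ended the call too. So did scan date or slide as a random block, and no array of this group shared a date with the controls. Fpr2 differed by 0.78 (SE 0.29, limma adjusted p = 0.0736), Fpr1 by 0.62 (SE 0.28) and Il1r2 by 0.59 (SE 0.31).

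At day 1 limma called 0 of 9 members after 0.25 Gy of neutrons and 1 had an unadjusted p below 0.05, beside 0.00921% of all genes called. That member was Cxcr2, at -1.59, -0.30 and -0.12 (lowest, median, highest) and 1.99-fold below controls in the mean (95% interval -1.85 to -0.14 on the log2 scale, limma adjusted p = 0.25), although 4 of 6 mice overlapped the controls. Csf3r levels were 6.00, 5.83, 5.72, 6.04 and 6.00 in controls and 5.15 to 5.61 after 0.25 Gy of neutrons. All 6 lay below every control, as in 1.96% of the genes tested, with a difference of -0.52 (SE 0.14, limma adjusted p = 0.191).

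The Csf3r value needs care in every group. The deposited annotation placed its probe at chr19:60157892-60157951 (mm9, plus strand), while the gene's promoter in RefSeq is on chromosome 4. Of the probe's 60 bases, 38 fell in stretches of at least 16 bases that occur in 10 other probes of the array, and the other 9 members shared none. Its last 30 bases are given to show this, with the 16 bases found in 7 other probes in capitals.
Csf3r probe: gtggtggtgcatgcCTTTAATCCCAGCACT

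At day 3 no member was called. Il1b had control levels of 3.74, 2.04, 2.41, 2.38 and 2.23 and levels of 5.68, 3.87, 4.11, 2.62 and 3.32 after 1 Gy of x-rays. Of the exposed mice 3 of 5 lay above every control, and the difference was 1.36 (SE 0.53, limma adjusted p = 0.167). Fpr1 differed by 0.98 (SE 0.34, limma adjusted p = 0.126) and Fpr2 by 0.92 (SE 0.37, limma adjusted p = 0.175). These were the 3 members with an unadjusted limma p below 0.05, beside 2.00% of all genes called, and the members' median was 0.82 against 0.00 over all genes. After 0.25 Gy of neutrons limma again called 0, with Fpr2 (0.92, SE 0.39) and Fpr1 (0.77, SE 0.30) the 2 members at an unadjusted p below 0.05, beside 1.17% of all genes called.

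At day 7 after 1 Gy of neutrons Cxcr2, S100a9, Fpr2 and Fpr1 were called higher, that is 4 of 9 members with 0 lower, beside 25.1% of all genes called higher and 38.4% in either direction. The median was 0.99 over the members and 0.31 over all genes, so values of this comparison are read against that shift. Cxcr2, the receptor that releases neutrophils from the marrow, ran from -1.53 through a median of -0.69 to 0.26 in the 6 controls and from -0.20 through 1.62 to 2.21 after 1 Gy of neutrons. It lay above every control in 5 of 6 mice and was 3.79-fold higher (log2 1.92, SE 0.45, limma adjusted p = 0.00225). S100a9 had levels of 7.82, 8.29 and 8.73 (lowest, median, highest) in controls and 8.95, 9.72 and 10.25 after neutrons. No mouse overlapped the controls, as in 22.9% of all genes, and the rise was 2.63-fold (log2 1.39, SE 0.24, limma adjusted p = 0.000274). Fpr2 rose 2.17-fold (log2 1.12, SE 0.25, limma adjusted p = 0.00156) and Fpr1 1.98-fold (log2 0.99, SE 0.22, limma adjusted p = 0.00182), each with 5 of 6 mice above the controls.

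S100a8, the partner of S100a9, differed by 1.28 (SE 0.33, limma adjusted p = 0.00494) and narrowly missed the call. Its levels were 4.76, 5.67 and 6.64 in controls and 6.34, 7.34 and 7.44 after neutrons, with 4 of 6 mice above every control. Cd177 (0.60, SE 0.16), Il1r2 (0.92, SE 0.29), Il1b (0.35, SE 0.31) and Retnlg (0.18, SE 0.20) were not called.

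These day 7 neutron arrays were dim, and the 4 calls depended on how that was handled. With scan date as a block, where 1 of 6 neutron arrays shared the controls' date, Cxcr2 differed by 0.43 (SE 0.70) and S100a9 by 0.66 (SE 0.40), and 0 of 9 were called. With spots not well above background set to missing before the array median was taken, Cxcr2 differed by 1.38, S100a9 by 0.86, Fpr2 by 0.58 and Fpr1 by 0.45, and 0 were called. Quantile normalization turned S100a9 to -0.068 and normexp background correction to -0.084, and all 4 calls were lost with normexp and with spike-in centring. Array scaling set the balance of all genes too, with 2723 called higher and 1443 lower in the values above, 2391 and 2082 after centring on the 75th percentile, 2043 and 1872 after quantile normalization, 631 and 969 after normexp background correction and 120 and 11044 after centring on spike-in controls, where the median of all genes was -2.03 and that of the members -0.996, Csf3r included. The members' median lay above that of all genes under each of these scalings except normexp, where it was 0.065 against 0.398. Under spike-in centring the members' median turned negative, and Il1b, Cd177 and Retnlg, not called in the values above, were called lower. The neutrophil granule list had a mean level of 0.72 to 1.11 in these mice against -0.14 to 0.25 in controls. That mean covers 23 genes on the array, of which only 16 passed the detection filter. Of the 14 tested 3 were called higher, a share below the 25.1% of all genes called higher. Erythroid genes were at 3.37 to 4.66 against 1.28 to 2.06 in controls, with 14 of 15 called higher, and B cell genes at 0.20 to 0.76 against 2.15 to 2.46, with 9 of 11 called lower. Their part in the members' levels was not tested.

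**Figure D3:**
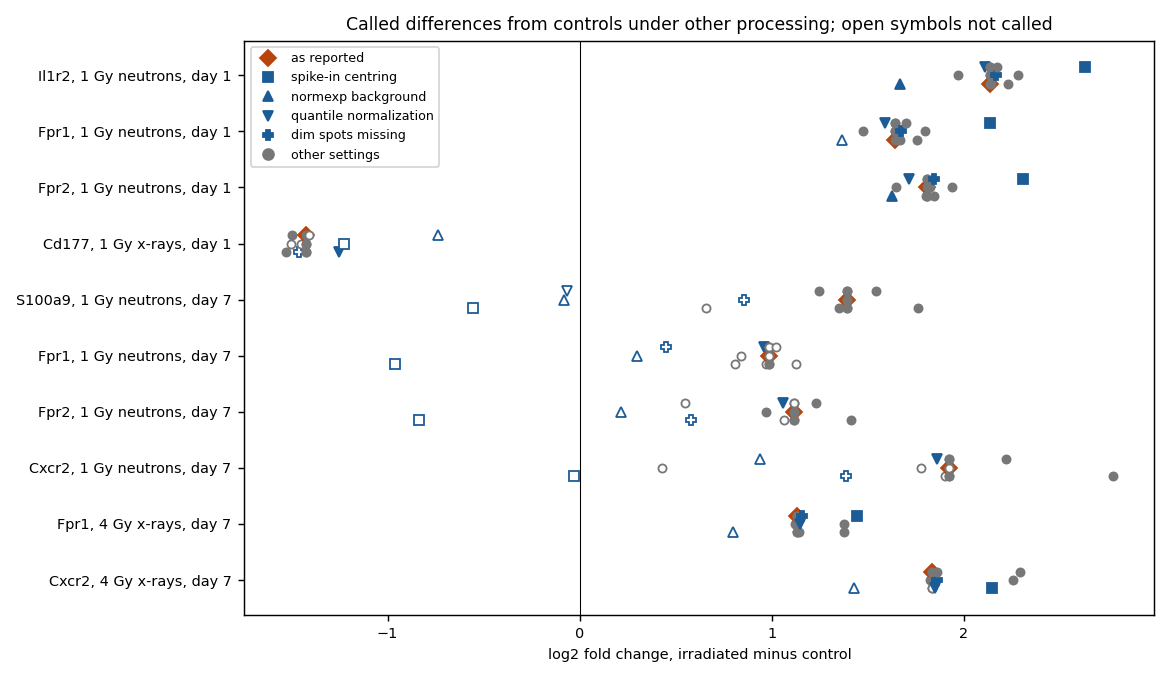
Log2 difference (horizontal axis) of the 10 member calls against controls under each other way of processing the arrays or fitting the groups. Filled symbols were called and open symbols were not; the Il1r2 and Fpr2 calls after 1 Gy of neutrons at day 1 kept filled symbols in every setting shown, while the 4 calls after 1 Gy of neutrons at day 7 were lost in several.

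After 4 Gy of x-rays Cxcr2 and Fpr1 were called higher at day 7. The 2 of 9 called higher stand beside 9.06% of all genes called higher and 17.6% in either direction, and the medians were 0.35 over the members and -0.04 over all genes. The 984 genes called higher and 923 lower became 1270 and 302 after spike-in centring, where both members were called higher, and 134 and 217 after normexp background correction, where neither was called. Cxcr2 ran from 0.20 through a median of 1.41 to 1.94, above every control in 5 of 6 mice, and was 3.56-fold higher (log2 1.83, SE 0.37, limma adjusted p = 0.00221). Fpr1 had control levels of -0.47, 0.18 and 0.83 (lowest, median, highest) and exposed levels of 0.85, 1.43 and 1.78. All 6 lay above the controls, as in 9.30% of all genes, and Fpr1 was 2.19-fold higher (log2 1.13, SE 0.24, limma adjusted p = 0.00261). Il1r2 (1.03, SE 0.28) and Fpr2 (0.95, SE 0.26) each had a limma adjusted p of 0.0117 and were not called. S100a9 differed by 0.05 (SE 0.28) and S100a8 by 0.35 (SE 0.33). Of the other mature neutrophil genes 11 of 30 were called higher and 1 lower, with a median of 0.81, and the list's mean level was 1.74 to 2.58 against 0.96 to 1.48 in controls.

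After 0.25 Gy of neutrons limma called 0 of 9 members at day 7, and at an unadjusted p below 0.05 it found 0, beside 0.0276% of all genes called. After 1 Gy of x-rays 0 were called and 1 had an unadjusted p below 0.05, beside 4.00% of all genes called. That was Cxcr2, at 1.19, 0.67, 0.21, 0.36 and -0.30 against -1.53 to 0.26 in controls, with 3 of 5 mice above and a difference of 1.06 (SE 0.37, limma adjusted p = 0.0935).

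**Figure D4:**
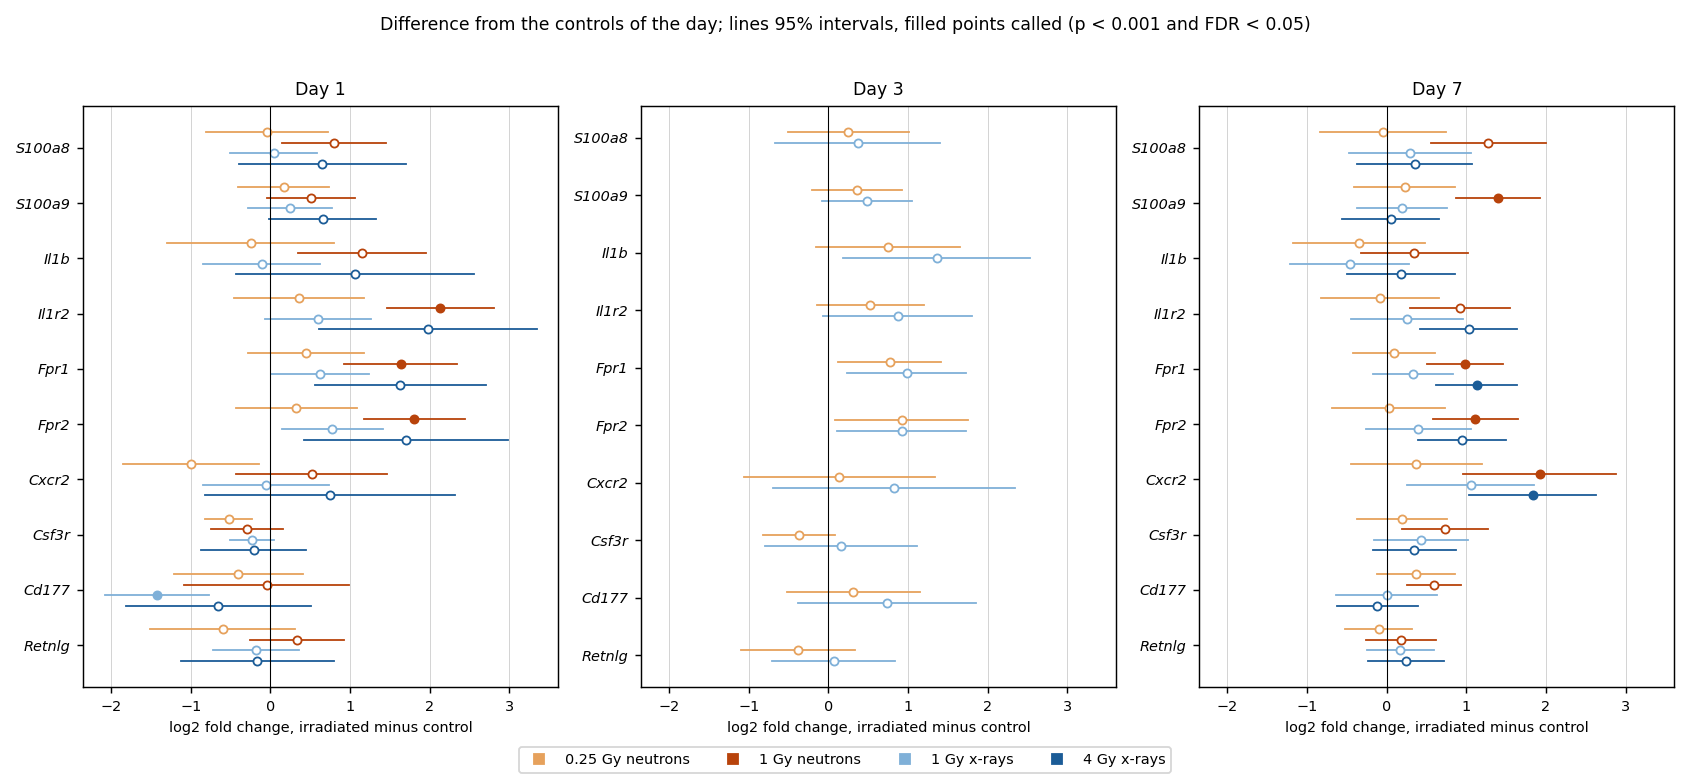
Difference of each gene from the controls of the same day (horizontal axis, log2, with 95% confidence intervals), by exposure and day. Filled symbols were called at a limma p below 0.001 and FDR below 0.05; Il1r2, Fpr2 and Fpr1 were called after 1 Gy of neutrons at day 1, Cxcr2 and Fpr1 after both 1 Gy of neutrons and 4 Gy of x-rays at day 7, and S100a9 and Fpr2 after 1 Gy of neutrons at day 7.

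Whether the members responded differently on the 2 days was tested as an interaction, each day against its own controls. For the 1 Gy neutron mice the day 7 effect of Il1r2 was 1.21 log2 units below that of day 1 (log2 -1.21, SE 0.43, limma adjusted p = 0.0239) and that of S100a9 was 0.88 above (SE 0.36, limma adjusted p = 0.0435). Cxcr2 differed by 1.40 (SE 0.66, limma adjusted p = 0.0791). None of these passed the call, and in the 4 exposures 0 of 9 members were called, with 1, 3, 1 and 0 at an unadjusted limma p below 0.05 for 0.25 and 1 Gy of neutrons and 1 and 4 Gy of x-rays, beside 1.32%, 28.7%, 8.68% and 22.4% of all genes called. A call on one day and none on the other is thus no shown difference between the days.

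At day 1, Il1r2, Il1b, Fpr2 and Fpr1 were called between 1 Gy of neutrons and 1 Gy of x-rays in the fit without scan date. At 1 Gy, these 4 of 9 members were higher after neutrons than after x-rays and 0 were lower, beside 1.33% of all genes called higher and 9.05% in either direction. The median difference was 1.02 over the members and 0.13 over all genes. The 144 genes called higher and 839 lower became 20 and 42 after spike-in centring, where 2 members were called, and 6 and 17 after normexp background correction, where 0 members were called. Il1r2 was at -0.53, 0.10 and 0.68 (lowest, median, highest) after x-rays and at or above 1.22 in each neutron mouse, a 2.91-fold difference (log2 1.54, SE 0.24, limma adjusted p = 0.00194). Il1b was at 2.21, 2.73 and 2.89 after x-rays against 3.44, 3.87 and 4.60 after neutrons (log2 1.26, SE 0.22, limma adjusted p = 0.00287). Fpr2 differed by 1.03 (SE 0.21, limma adjusted p = 0.00528) and Fpr1 by 1.02 (SE 0.21, limma adjusted p = 0.00605). Cxcr2 (means of 0.94 and 0.37), Csf3r (5.62 and 5.69), S100a8 (0.75, SE 0.22) and Cd177 (1.38, SE 0.39) were not called, yet for the last 2 and the 4 called, every neutron mouse lay above every x-ray mouse, as in 2.33% of all genes.

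Scan date bears on this comparison, since 2 of the 6 neutron arrays and 4 of the 6 x-ray arrays shared a date and the rest did not. With the date as a block, Il1r2 differed by 1.5 (SE 0.35, limma adjusted p = 0.119), Il1b by 1.15 (SE 0.33, limma adjusted p = 0.151), Fpr2 by 1.08 (SE 0.31, limma adjusted p = 0.151) and Fpr1 by 0.71 (SE 0.31, limma adjusted p = 0.275). No member was called in that fit, and by limma no gene of the 10863 was.

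Against 4 Gy of x-rays at day 1, 1 Gy of neutrons gave levels that limma could not tell apart, with 0 of 9 members called and 0 at an unadjusted p below 0.05, beside 0.0552% of all genes called. The 95% intervals of the difference ran from -1.09 to 1.40 for Il1r2, from -1.04 to 1.25 for Fpr2 and from -0.94 to 0.95 for Fpr1. The 4 Gy and 1 Gy x-ray groups had 0 members called at day 1 and 2 at an unadjusted limma p below 0.05, beside 17.6% of all genes called, and Il1r2 differed by 1.38 (SE 0.57).

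Between the neutron doses at day 1, Il1r2 (1.78, SE 0.32, limma adjusted p = 0.0223) and Fpr2 (1.49, SE 0.28, limma adjusted p = 0.0258) were called higher at 1 Gy than at 0.25 Gy, beside 0.506% of all genes called higher and 1.35% in either direction (55 higher and 92 lower, or 423 and 31 after spike-in centring). The 0.25 Gy mice had Il1r2 levels of -1.32, -0.03 and 0.44 (lowest, median, highest) and Fpr2 levels of -0.04, 1.22 and 1.63, all below those of the 1 Gy mice. With scan date as a block, since 2 of the 6 arrays at 1 Gy were on another date, Il1r2 differed by 1.87 (SE 0.36, limma adjusted p = 0.072) and Fpr2 by 1.52 (SE 0.32, limma adjusted p = 0.0956), so that neither was called, nor was either with normexp. Of 12 fits that left out 1 mouse, 6 called Il1r2 and 4 called Fpr2. Cxcr2 also did not overlap, as in 0.967% of all genes, with a difference of 1.51 (SE 0.37, limma adjusted p = 0.0647) that was not called.

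At day 7, up to 2 of the 9 members were called between exposures, a share near or below that of all genes. S100a9 was higher after 1 Gy of neutrons than after 4 Gy of x-rays, where it lay at 7.25, 8.50 and 9.17 (log2 1.34, SE 0.31, limma adjusted p = 0.00163), with 5 of 6 neutron mice above every x-ray mouse. That was 1 of 9 members, beside 31.0% of all genes called higher and 41.9% in either direction (3371 higher and 1182 lower, or 145 and 12540 after spike-in centring and 2088 and 3153 with dim spots missing), and spike-in centring and quantile normalization turned its direction. The call held in 7 of 15 settings and 4 of 12 fits that left out 1 mouse. Against 0.25 Gy of neutrons, S100a8 (1.32, SE 0.31, limma adjusted p = 0.00298) and Fpr1 (0.90, SE 0.20, limma adjusted p = 0.00253) were called higher, beside 21.6% of all genes and 31.1% in either direction (2341 higher and 1034 lower, or 235 and 4556 after spike-in centring and 1372 and 2075 with dim spots missing), and spike-in centring left Fpr1 at -0.035. All 5 arrays at 0.25 Gy and 1 of 6 at 1 Gy shared a scan date, and with the date as a block S100a8 differed by 0.68 (SE 0.54) and Fpr1 by 0.72 (SE 0.38), neither of them called. Each call held in 6 of 15 settings and 3 of 11 fits that left out 1 mouse. S100a8 stood at 5.63, 5.13, 5.58, 5.57 and 6.70 after 0.25 Gy, so that 4 of 6 mice given 1 Gy lay above every one, and Fpr1 stood at 0.36, -0.28, 0.30, 0.37 and 0.64 with no overlap, as in 22.6% of all genes. Against 1 Gy of x-rays limma called 0, with 5 at an unadjusted p below 0.05 and S100a9 differing by 1.20 (SE 0.30, limma adjusted p = 0.00551), beside 23.0% of all genes called. The 2 x-ray doses gave 0 calls at day 7 and 3 members at an unadjusted limma p below 0.05, beside 9.54% of all genes called. These comparisons share the 1 Gy neutron mice and are not independent of each other.

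**Figure D5:**
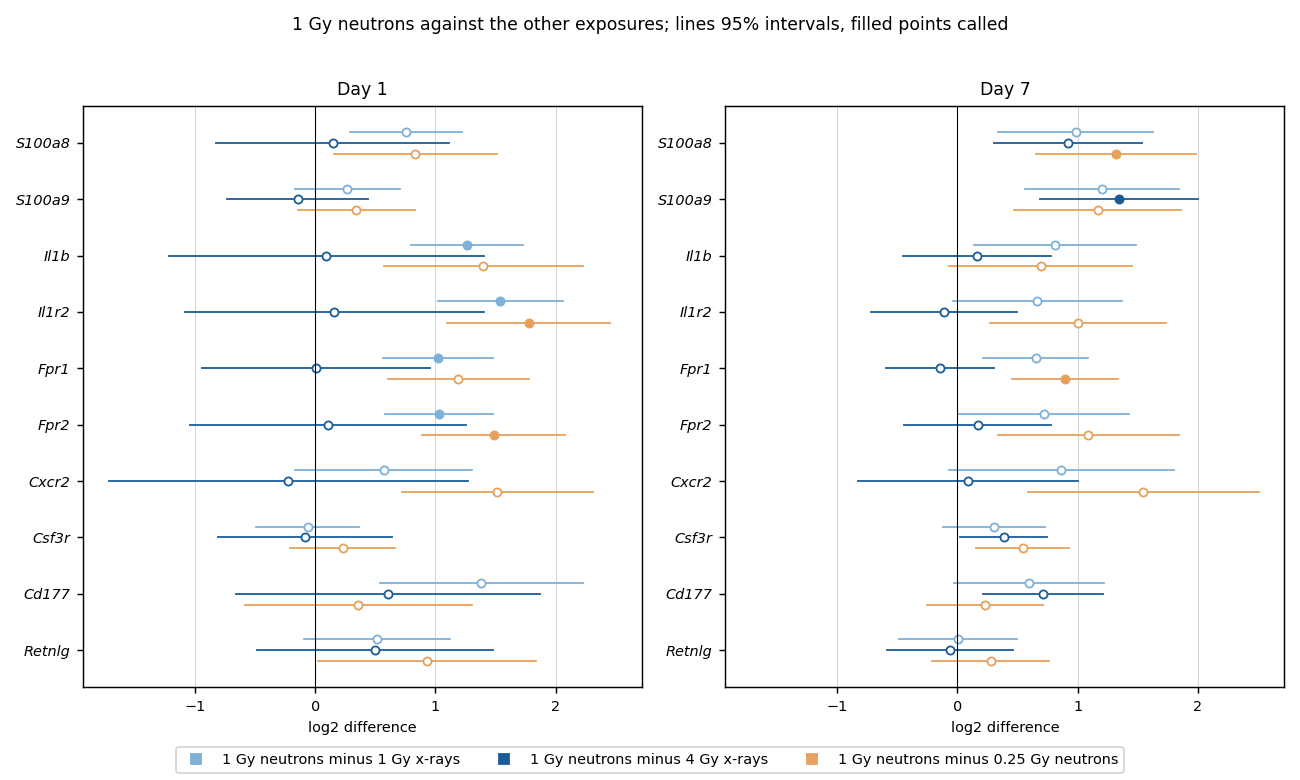
Difference of the 1 Gy neutron group from the other exposures of the same day for each gene (horizontal axis, log2, with 95% confidence intervals). Filled symbols were called at a limma p below 0.001 and FDR below 0.05; at day 1 Il1r2, Fpr1, Fpr2 and Il1b lie above 0 against 1 Gy of x-rays and close to 0 with wide intervals against 4 Gy of x-rays.

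Unexposed mice of different days were compared as a background. Retnlg, a resistin-like protein secreted by granulocytes, was lower in day 7 than in day 1 controls, at 4.56, 5.11 and 5.33 (lowest, median, highest) against 5.98, 6.42, 5.49, 6.04 and 5.85. All 6 lay below every day 1 control, as in 4.18% of all genes, and the difference was -0.93 (SE 0.19, limma adjusted p = 0.017). It was 1 of 9 members called lower, beside 1.80% of all genes and 5.18% in either direction, and since each control group had a scan date of its own, day and date cannot be told apart. Retnlg was not called in any exposure, and its differences from the controls of the day ran from -0.60 (SE 0.42) after 0.25 Gy of neutrons at day 1 to 0.33 (SE 0.27) after 1 Gy of neutrons at day 1. Between days 3 and 1 limma called 0 members and 0 genes among controls, with 0 members and 1041 genes at an unadjusted p below 0.05, and between days 7 and 3 it called 0 members, with 2 at an unadjusted p below 0.05, beside 2.34% of all genes.

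Levels of the members were also compared with each other across the 72 arrays, as a description. Pearson's r between log2 levels was 0.927 for Il1r2 and Fpr2, 0.902 for Il1r2 and Fpr1 and 0.881 for Fpr1 and Fpr2, and 0.874, 0.837 and 0.765 within groups, where each level was taken from its group mean. These 3 genes were picked out by calls in the same comparison, so their values over all arrays are no independent finding. The lowest r over all arrays was 0.159, for Cd177 and Retnlg, which was 0.518 within groups, and the lowest within groups was 0.309, for Fpr2 and Csf3r. These values describe 72 arrays that share scan dates and exposures. Among 10854 other genes, those most like the mean of the members were Trem3 (r = 0.943), a myeloid surface receptor, Mmp8 (r = 0.936), the neutrophil collagenase, Arg2 (r = 0.928), a mitochondrial arginase, and Cebpd (r = 0.922), a C/EBP transcription factor.

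Genes of the members' pathways were counted in the same comparisons. After 1 Gy of neutrons at day 1, beside the 6.96% of all genes called higher, 1 of 9 chemoattractant receptors and ligands tested was called higher, Ccr1, a chemokine receptor (1.76, SE 0.35), with a list median of 0.88 and 8 of 9 at an unadjusted p below 0.05. Of 14 interleukin 1 family and inflammasome genes 2 were called higher, Il18bp, which neutralises interleukin 18 (2.50, SE 0.31), and Il18 (1.16, SE 0.24), with a median of 0.40. Of 15 alarmin and pattern receptors 3 were called higher, led by the C-type lectin Clec4d (1.47, SE 0.30) and Trem1 (1.19, SE 0.25), which amplifies innate receptor signals, with a median of 1.02. All 15 of them lay above 0 and 12 had an unadjusted limma p below 0.05, as did 6074 of all 10863 genes in either direction. Of 14 genes of the G-CSF pathway 2 were called higher, Cebpa (2.02, SE 0.47) and the STAT target Cish (1.57, SE 0.28), and of 8 other S100 genes 1, S100a1 (1.54, SE 0.30). No gene of these lists was called lower there, and the median over all genes was 0.05.

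After 4 Gy of x-rays at day 1, where 35.1% of all genes were called, 3 of 14 interleukin 1 genes were called higher and 1 lower, with Il1rap, the shared signalling chain, at 3.96 (SE 0.64), and Cd14, a lipopolysaccharide receptor, was the 1 of 15 alarmin and pattern receptors called (2.74, SE 0.54). Cebpa (2.87, SE 0.39) and Cish (2.47, SE 0.24) led the 3 G-CSF genes called there, and 0 of 9 chemoattractant genes were called by limma, with 6 at an unadjusted p below 0.05. At day 7 after 4 Gy of x-rays, beside 17.6% of all genes, 2 of 9 chemoattractant receptors were called higher, C5ar1, the receptor of complement C5a (1.17, SE 0.23), and Ltb4r1, that of leukotriene B4 (0.94, SE 0.18). After 1 Gy of neutrons at day 7, where 38.4% of all genes were called, limma called 0 of 9, with 4 at an unadjusted p below 0.05. After 4 Gy of x-rays at day 7, 2 interleukin 1 genes were called higher and 1 lower, and 3 G-CSF genes and 4 of 15 alarmin and pattern receptors higher, and after 1 Gy of neutrons 2 interleukin 1 genes were called higher and 2 G-CSF genes lower. Hepatocyte levels after 4 Gy of x-rays at day 1 were 6.39 to 7.69 against -2.11 to 5.37 in controls, and their part in these differences was not tested.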

How the data were processed

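RNA of globin-reduced blood was hybridised to one-colour Agilent mouse arrays, and the authors deposited scanner files in which each spot has a processed intensity. They were made with Agilent Feature Extraction 12.0.2, per the submitters' processing notes, and give probe positions on mm9. A table of processed log2 values was also deposited by the authors, but of its 72 columns 12 followed their own array and 60 another. Of the columns, 21 followed an array of another group. Whether the table or the scanner files carry the wrong labels was not settled, and all results here rest on the labels of the scanner files. The table served as an alternative only for 0.25 Gy neutrons at day 1, without exposed replicate 6, whose column followed an array of another group. The depth of an array is not a count, and precision is limited by the 5 or 6 mice of a group. Each array holds a separate mouse, so p-values measure the spread between mice.

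The design holds 44397 spots with 1377 controls among them and 39429 different probes. The processed intensity was taken to log2, spots flagged as outliers were dropped, replicate spots averaged, and each array centred on the median of the 19808 probes that were flagged below background on under 25% of arrays. Of these, the 12556 that departed 1.5-fold or more from their median on 20% or more of the 56 arrays of days 1 and 7 were kept, and the brightest probe of a gene was used (10863 genes). Names came from the arrays and, for 28324 probes, from the RefSeq accession. Groups came from the labels. Each comparison was fitted on its own groups by lmFit and eBayes of limma 3.58.1, run in R 4.3.3, two-sided, with Benjamini-Hochberg adjustment over all genes, and a call needed p below 0.001 and FDR below 0.05, the threshold of the study. Sequences were read with Python 3.11.15. The fitting code was also run on simulated data with known changes. Those data held no effect of scan date or of dim arrays, so the run does not bear on either.

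All 10 members are named in the text, with the genes of each pathway and marker list that were called with the largest change and the genes most like the mean of the members. The members and lists were chosen with earlier results of these data known. Alternatives were other centring (75th percentile, quantile, 320 spike-in spots), normexp background correction with an offset of 50, no filters, dim spots set to missing, the mean of a gene's probes, the random variance test of the methods, 1 fit of all 13 groups, blocks for replicate number, slide and scan date, and each mouse left out. A slide block, a hepatocyte covariate and leaving out day 7 mice of high hepatocyte level were chosen after seeing the data. Replicate numbers are shared between groups, but in no comparison did every same-numbered pair correlate above 0.1, so the numbers were not taken as pairs.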

Additional observations from a re-analysis of the deposited data

Results flagged for a closer look

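Within the groups of 5 or 6 mice, 8 of 130 sets of a gene's levels had 1 mouse far from the rest of its group, where about 1 in 20 are reached by chance. In the day 3 controls replicate 1 was apart for Il1b, at 3.74 with the nearest mouse at 2.41, and for Cxcr2, at 2.01 with the nearest at 0.41. After 1 Gy of neutrons at day 1, replicate 4 was the highest for Fpr2, at 3.13 with the nearest at 2.57, and for Cd177, at -1.15 with the nearest at -3.04, and replicate 3 was the lowest for Retnlg, at 5.29 with the nearest at 6.28. Retnlg was also low in replicate 5 of 0.25 Gy of neutrons at day 1, at 3.49 with the nearest at 5.25. At day 7, replicate 5 of 0.25 Gy of neutrons had the highest Cxcr2, at 0.85 with the nearest at -0.42, and replicate 5 of 1 Gy of x-rays the lowest Cd177, at -4.17 with the nearest at -2.90.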

How the results depend on the processing

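Il1r2 and Fpr2 after 1 Gy of neutrons at day 1 were called in 14 of 14 settings, with log2 differences of 1.67 to 2.63 for Il1r2 and 1.62 to 2.31 for Fpr2, and in 11 of 11 fits that left out 1 mouse. Fpr1 was called in 13 of 14 and 10 of 11, and was lost with normexp background correction (1.36) and without control replicate 5. At day 7 after 1 Gy of neutrons, S100a9 was called in 10 of 15 settings, Fpr2 in 9, Cxcr2 in 8 and Fpr1 in 4. After 4 Gy of x-rays Cxcr2 was called in 12 of 14 and Fpr1 in 13 of 14. The cause of these losses was not tested, beyond what each setting itself changes. Spike-in centring moved the median of all genes by over 0.1 in most comparisons, to -2.03 for 1 Gy of neutrons and -1.05 for 0.25 Gy of neutrons against controls at day 7. The random variance test and the mean of a gene's probes gave the same calls throughout. The authors' table called 0 members after 0.25 Gy of neutrons at day 1.

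The number of members called moved as follows. With spike-in centring Csf3r passed the 1.5-fold filter, so those counts are over 10 members. Against the controls at day 1, 1 Gy of x-rays gave 0 with spike-in centring, normexp, dim spots missing, scan date as a random block, slide as a random block or the hepatocyte level as a covariate, and 4 Gy of x-rays gave 3 in 1 fit of all 13 groups and 1 with the replicate block. At day 3, 1 Gy of x-rays gave 1 with scan date as a random block. At day 7, 0.25 Gy of neutrons gave 1 with spike-in centring, and 4 Gy of x-rays gave 4 with spike-in centring, 0 with normexp and 1 in 1 fit of all groups. For 1 Gy of neutrons at day 7 the count was 2 with 75th percentile centring, in 1 fit of all groups or with the replicate block, 1 with the slide block, and 0 with normexp, dim spots missing or the scan date block. With spike-in centring the calls reported there were lost, and Il1b, Cd177 and Retnlg were called lower.

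Between 1 Gy of neutrons and 1 Gy of x-rays at day 1 the count was 2 with spike-in centring or 1 fit of all groups and 0 with normexp or the scan date block, and at day 7 it was 1 with normexp, 1 fit of all groups or the hepatocyte covariate. Between the neutron doses at day 1 it was 5 with spike-in centring, the replicate block, the slide block or the hepatocyte covariate and 0 with normexp or the scan date block. Between the neutron doses at day 7 it was 1 with quantile normalization or 1 fit of all groups and 0 with 75th percentile centring, spike-in centring, normexp, no detection filter, dim spots missing, the scan date block or the slide block. Between 1 Gy of neutrons and 4 Gy of x-rays at day 7 it was 9, all lower, with spike-in centring and 0 with 75th percentile centring, quantile normalization, normexp, dim spots missing, the scan date block, the slide block or without day 7 mice of hepatocyte level above 0. Between the x-ray doses at day 7 it was 7 with spike-in centring and 1 with the hepatocyte covariate. The day effect of 1 Gy of neutrons gave 5 with spike-in centring and 1 with dim spots missing, and that of 1 Gy of x-rays gave 1 without day 7 mice of hepatocyte level above 0. Among controls, day 7 against day 1 gave 0 with spike-in centring, normexp, no detection filter, 1 fit of all groups, the replicate block or the hepatocyte covariate, and spike-in centring gave 3 for day 3 against day 1 and 5 for day 7 against day 3.

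Among members called in the reported values or in the alternative, the directions that turned all involved day 7, and the members' median of day 3 against day 1 controls went from -0.15 to 1.40 with spike-in centring. For 1 Gy of neutrons against controls, S100a9 was -0.068 after quantile normalization and -0.084 after normexp, and spike-in centring gave S100a9 -0.56, Il1b -1.60, Fpr1 -0.96, Fpr2 -0.83, Cxcr2 -0.030, Cd177 -1.35 and Retnlg -1.77. Against 4 Gy of x-rays, S100a9 was -0.61 after quantile normalization, and spike-in centring gave S100a8 -1.34, S100a9 -0.92, Il1b -2.10, Fpr2 -2.09, Cxcr2 -2.18 and Cd177 -1.55. Spike-in centring also gave Fpr1 -0.035 between the neutron doses and S100a9 -1.40 for day 7 against day 3 controls.

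Leaving out each mouse in turn gave 2 to 4 members called for 1 Gy of neutrons against controls at day 1 (2 without control replicate 5, 4 without control replicate 2) and 1 to 4 at day 7 (1 without control replicates 1 or 5 or exposed replicates 3, 4 or 5). The range was 0 to 1 for 1 Gy of x-rays at day 1 (0 without control replicates 2 or 5 or exposed replicates 1 or 5), 0 to 1 for 4 Gy of x-rays at day 1 (1 without replicate 3) and 1 to 3 for 4 Gy of x-rays at day 7 (1 without control replicate 4 or exposed replicates 1, 2 or 3, 3 without control replicate 3). Between exposures it was 3 to 5 for 1 Gy of neutrons against 1 Gy of x-rays at day 1 and 0 to 1 at day 7 (1 without neutron replicate 1), 0 to 3 between the neutron doses at day 1 (0 without 0.25 Gy replicates 1 to 4 or 1 Gy replicates 3 or 6, 3 without 0.25 Gy replicate 6) and 0 to 4 at day 7 (4 without 0.25 Gy replicate 5, 0 without any other 0.25 Gy mouse or 1 Gy replicates 3 to 6), and 0 to 1 for 1 Gy of neutrons against 4 Gy of x-rays at day 7 (0 without neutron replicates 3 to 6 or x-ray replicates 1, 2, 4 or 5). The day effect of 1 Gy of x-rays gave 0 to 1 (1 without day 1 control replicate 3 or day 7 exposed replicate 5) and the controls of day 7 against day 1 gave 0 to 1 (0 without day 1 replicates 1, 2, 4 or 5 or day 7 replicates 1 or 4). The replicate block is given for completeness, since the numbers do not pair mice. A scan date block could not be fitted where both groups had 1 date or each its own. Cd177 lies near background and limits what its values show.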
